A study of Homo sapiens with 16 samples.

Results

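The clustered protocadherins were taken as the protein-coding genes of chromosome 5 whose symbols start with PCDHA, PCDHB or PCDHG in RefSeq (GRCh38.p14). There were 53 of them among 19974 protein-coding genes of chromosomes 1 to 22 and X, namely 15 in the alpha cluster, 16 in the beta cluster and 22 in the gamma cluster. Their H3K27ac was read from 14 peak lists of K562, a human leukemia cell line with erythroid features, each from 1 ChIP library made from fixed cells with the antibody Abcam ab4729. H3K27ac is the acetylation of lysine 27 of histone H3, a mark of active promoters and enhancers. In the fixed-antibody arm 0.25 µg of antibody met 7 amounts of chromatin, measured as its DNA (DNA_chrom). In order of rising DNA_chrom, the libraries of this arm were K562-H3K27ac-0.31-T32, K562-H3K27ac-0.62-T16, K562-H3K27ac-1.25-T8, K562-H3K27ac-2.5-T4 and K562-H3K27ac-5-T2, with a titer (antibody relative to chromatin) over 1, and K562-H3K27ac-10-T1a and K562-H3K27ac-20-T0.5, with a titer of 1 and 0.5. In the normalized arm the antibody was scaled to titer 1 at each amount, which gave K562-H3K27ac-0.31-T1, K562-H3K27ac-0.62-T1, K562-H3K27ac-1.25-T1, K562-H3K27ac-2.5-T1, K562-H3K27ac-5-T1, K562-H3K27ac-10-T1b and K562-H3K27ac-20-T1. The number before T in each name is the DNA_chrom in µg and the one after T the titer, and the shared first part of the names is mostly left out from here on. All libraries came from untreated cells of the same line. Every condition has 1 library, apart from titer 1 at 10 µg, which both 10-T1a and 10-T1b represent. Because the input library also differed between the arms, an effect of the arm cannot be told apart from one of its input or preparation. In the fixed-antibody arm titer cannot be told apart from DNA_chrom. All 5 libraries with a titer over 1 are in the fixed-antibody arm, and 7 of the 9 others are normalized. A comparison of titers over 1 with titers of 1 or below therefore also carries the arm.

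Clustered protocadherins are cell surface adhesion proteins of the cadherin superfamily. They are best known from neurons, where each cell uses a small set of them as an identity code that lets a neuron recognise its own branches. In the alpha and gamma clusters every variable first exon has its own promoter and is spliced to constant exons shared by the whole cluster, whereas the beta genes are single units. Most of the promoters carry a conserved sequence element with the core CGCT near the start site, and promoter choice in neurons depends on the insulator protein CTCF, cohesin, DNA methylation and distant enhancers.

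The RefSeq positions show this architecture. The alpha cluster spanned chr5:140786140-141012347 (226 kb), and 15 of 15 alpha genes ended at the same base. The gamma cluster spanned chr5:141330514-141512975 (182 kb), and 22 of 22 gamma genes shared their last base. The beta cluster lay between them at chr5:141051374-141249365 (198 kb), and its 16 genes ended separately. All 53 genes are on the plus strand, and the start site (TSS) was taken as the first base of each gene.

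The promoter sequences are shown because the element with the CGCT core is shared by most of these promoters and was not used to choose them. RefSeq promoter windows, from 250 bases before to 50 bases after the TSS, were at hand for 47 of the 53 genes and for 15813 genes in all. The windows of PCDHA3, PCDHA13, PCDHB6, PCDHB11, PCDHGA12 and PCDHGC5 were not used here. Below are the 100 bases before the TSS of 2 genes each from the alpha, beta and gamma clusters and of PCDHAC1. PCDHAC1 and PCDHGC4 are C-type genes, which lie at the end of the alpha and gamma clusters and are used more evenly among neurons. The bases are written 5′ to 3′ on the plus strand of GRCh38.p14, and the capitals mark the first CGCT on that strand. A CGCT alone does not identify the element, so a marked CGCT, that of PCDHGC4 included, need not be part of it. These examples were chosen after the sequences had been seen.
PCDHA1 (chr5:140786040-140786139): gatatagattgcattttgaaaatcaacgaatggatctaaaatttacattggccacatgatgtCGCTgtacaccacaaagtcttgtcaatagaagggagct
PCDHA8 (chr5:140841087-140841186): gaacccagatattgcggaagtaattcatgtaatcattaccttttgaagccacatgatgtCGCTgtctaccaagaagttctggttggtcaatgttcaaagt
PCDHAC1 (chr5:140926199-140926298): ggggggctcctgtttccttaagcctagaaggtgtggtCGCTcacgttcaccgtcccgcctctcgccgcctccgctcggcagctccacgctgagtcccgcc
PCDHB16 (chr5:141182287-141182386): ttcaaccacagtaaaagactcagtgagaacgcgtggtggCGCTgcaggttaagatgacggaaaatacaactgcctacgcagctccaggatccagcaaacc
PCDHB15 (chr5:141245295-141245394): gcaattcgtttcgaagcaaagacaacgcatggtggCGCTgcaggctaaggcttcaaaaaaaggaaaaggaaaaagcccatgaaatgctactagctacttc
PCDHGB4 (chr5:141387598-141387697): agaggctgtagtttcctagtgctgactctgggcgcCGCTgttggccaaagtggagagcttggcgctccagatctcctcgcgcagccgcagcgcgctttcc
PCDHGC4 (chr5:141484930-141485029): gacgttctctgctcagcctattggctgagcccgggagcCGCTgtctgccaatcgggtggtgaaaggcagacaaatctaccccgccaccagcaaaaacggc

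CGCT was present on either strand in 46 of the 47 windows (97.9%) and in 81.0% of all promoter windows. On the strand of the gene and within the 100 bases before the TSS it was present in 44 of 47 (93.6%), compared with 35.1% of all promoters, and PCDHA9, PCDHB8 and PCDHGB2 lacked it there. The bases in front of the core differed by cluster. The 6-base string GTCGCT stood on the strand of the gene in 11 of 13 alpha windows and in 5.70% of all windows. GGCGCT stood in 13 of 14 beta windows and in 16.3% of all. GCCGCT stood in 13 of 20 gamma windows and in 15.6% of all, and GTCGCT in 6 of these 20. GTCGCT, the string GCCGCT and the limit of 100 bases were chosen after the windows had been seen, and each 6-base string contains CGCT, so these counts are not separate from it. The string TATAAA, known from the classical core promoter, was present on either strand in 6 of 47 windows, compared with 9.75% of all. The string GGNGGCAG, part of the CTCF motif, was present in 0 of 47, compared with 18.6% of all, which says only that these letters are not in the windows.

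None of the 53 promoters carried an H3K27ac peak in any library. A gene was counted where a peak with a q-value of at most 1% reached within 2 kb of its TSS. The count was 0 of 53 in each of the 14 lists, in the alpha, beta and gamma clusters alike. Over the 19630 protein-coding genes whose TSS could be placed, 62.5% had a promoter peak in at least 1 list, 49.2% had one in all 14 lists and 37.5% had none. Within single lists between 53.9% and 57.0% of the genes had one. A share of 53 in 53 without a peak therefore stood beside a background of 37.5%.

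**Figure D1:**
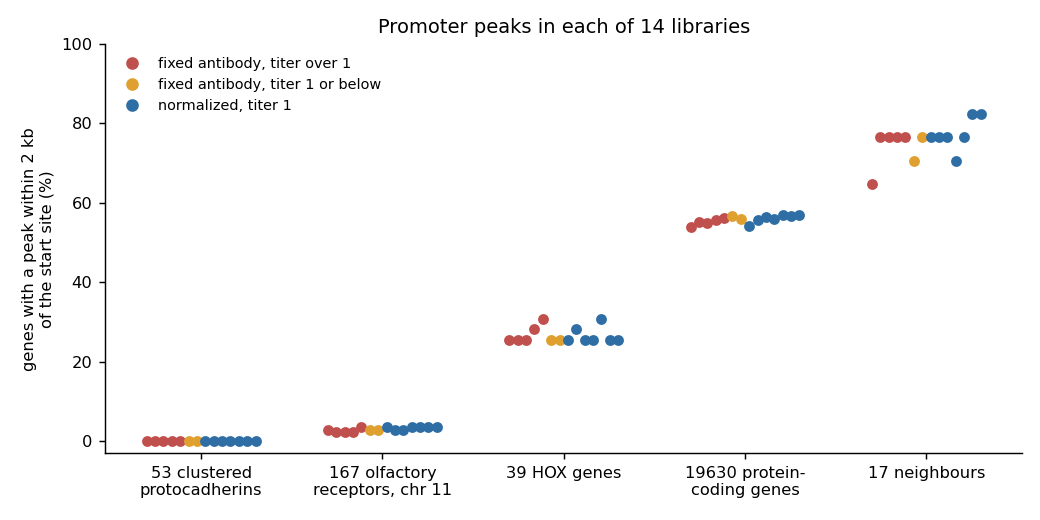
Share of genes with an H3K27ac peak within 2 kb of the start site (y axis, %) in 5 gene sets (x axis), with 1 point per library in the order 0.31-T32 to 20-T0.5, then 0.31-T1 to 20-T1. All 14 points of the 53 clustered protocadherins lie at 0, those of the chromosome 11 olfactory receptors between 2.40 and 3.59, those of the HOX genes between 25.6 and 30.8 and those of all protein-coding genes between 53.9 and 57.0.

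Most genes around the clusters had a promoter peak in the same lists. There were 17 other protein-coding genes with a TSS inside the span or within 200 kb of its ends. Of these, 11 (64.7%) had a promoter peak in all 14 lists, 5 in some lists and 1, TMCO6, in none. The share of all protein-coding genes with a peak in all 14 lists was 49.2%. The TSS of TMCO6 was taken as the outermost base of its RefSeq record, chr5:140596530. Farther inside that record peaks were present, with a fold enrichment of 15.4 for 1 of them in 10-T1a. Of the 5 genes, ARAP3 had a peak in 12 lists, CD14 in 6, DND1 in 5, SLC25A2 in 2 and LOC112267855 in 1. NDUFA2 and IK, HARS1 and HARS2, and HDAC3 and RELL2 had the same values in pairs, so the 11 genes are not separate peaks. Upstream, the 11 included the histidyl-tRNA synthetase genes HARS1 and HARS2. Their shared promoter peak had a fold enrichment of 5.15 to 13.6 over the 14 lists. Downstream, the 11 included HDAC3, a histone deacetylase, at 5.37 to 15.5, and DIAPH1, an actin regulator, at 6.13 to 15.9. Fold enrichment is the ratio of ChIP signal to background that MACS2 gave each peak. Its scale is set within each library, so libraries were tested mainly by its rank within each list, and raw values are given beside the ranks as a description.

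Other gene families of repeated units were partly marked. Of 39 HOX genes, 24 (61.5%) had no promoter peak in any list and 9 had one in all 14. Of 167 olfactory receptor genes on chromosome 11, sensory receptors used mainly in the nose, 160 (95.8%) had none and 7 had one in at least 1 list. Of 12 protocadherins outside the clusters 11 had none, and PCDH9 had a promoter peak in 9 lists with a fold enrichment of 3.75 to 7.72. No test was made between these families.

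Markers of the cell line and of neurons were read in the same way. All 12 erythroid markers had a promoter peak, 11 of them in all 14 lists and HBE1, embryonic globin, in 12. Of the lymphoid markers CD3E, MS4A1 and PAX5 had none, CD4 had a peak in 1 list and CD79A in 14. Of 8 neuronal markers SNAP25, SYT1, RBFOX3, STMN2, GAD1 and NEFL had none, TUBB3 had a peak in 14 lists and SLC17A7 in 13. The erythroid label of the line was thus matched at its defining markers, whereas 2 of 8 neuronal markers and the lymphoid markers CD4 and CD79A were also marked in at least 1 list.

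The factors known to act on the clusters were marked. All 16 genes of the list of regulators had a promoter peak in all 14 lists, including CTCF (fold enrichment 10.8 to 24.5), the cohesin genes RAD21 (6.04 to 20.1) and SMC3 (5.49 to 18.9), and the cohesin loader NIPBL (5.73 to 20.5). They also included SMCHD1 (8.81 to 16.9), REST (6.71 to 18.0) and SETDB1 (4.54 to 27.9), which act in repression. A promoter peak in all 14 lists was present at 49.2% of all genes, and a peak does not measure the activity of the factor.

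The absence of peaks extended well beyond the promoters. The alpha cluster, the beta cluster and the 39.0 kb between them held 0 peaks in all 14 lists. The gamma cluster held 1 peak in 1 list, at chr5:141512125-141512470 in 0.62-T16 with a fold enrichment of 4.38, near the shared last base of the gamma genes and 23044 bases beyond the TSS of PCDHGC5. The other 13 lists had no peak in the gamma cluster. Peaks covered 0.128% to 0.746% of the 727 kb span, compared with 0.723% to 1.77% of chromosome 5 up to its last peak, and apart from the peak of 0.62-T16 all of these bases lay between the beta and gamma clusters.

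**Figure D2:**
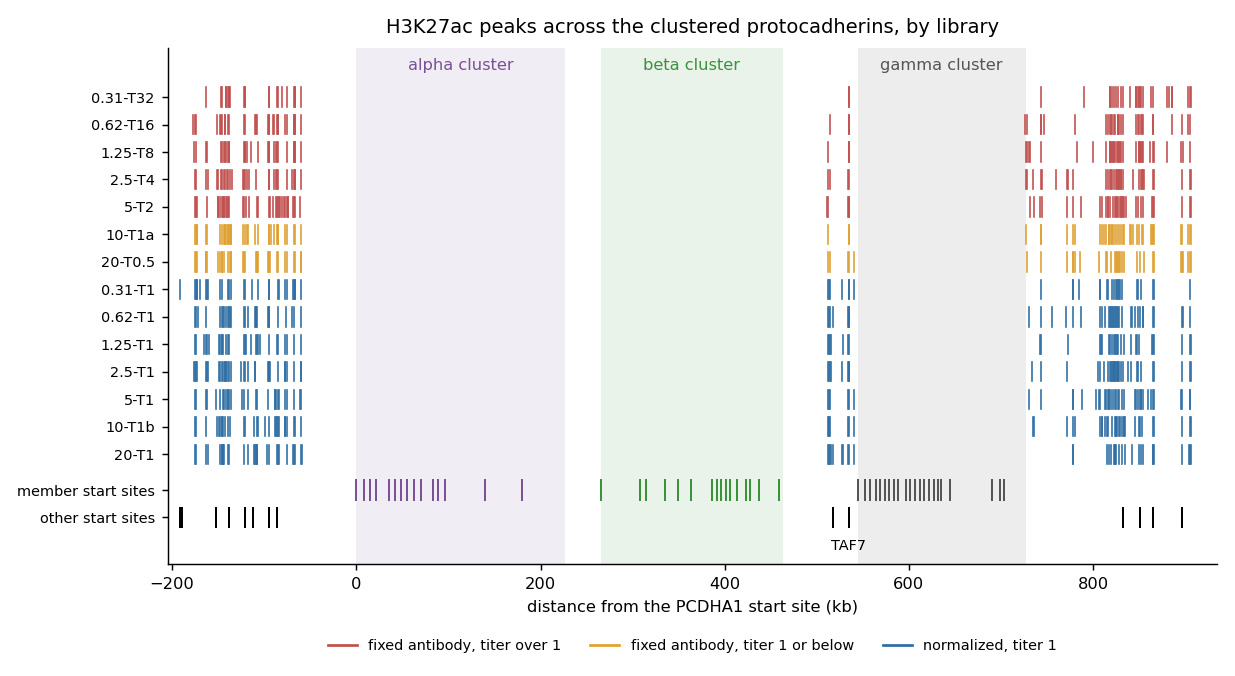
H3K27ac peaks with a q-value of at most 1% (vertical strokes at the peak centre) in 14 libraries (rows) against the distance from the PCDHA1 start site in kb (x axis), with the 3 clusters shaded and the start sites of members and of other protein-coding genes below. The alpha and beta clusters are empty in all 14 rows, the gamma cluster holds 1 stroke at its right edge in 0.62-T16, and peaks in all rows flank the clusters and stand at TAF7.

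The peak-free stretches were long and rich in genes. Once the 14 lists were merged, 1 stretch without a peak ran over chr5:140726930-141297511, 571 kb, and contained the TSSs of 31 protein-coding genes from PCDHA1 to PCDHB15, all of them members. A further stretch ran over chr5:141326660-141512124, 185 kb, and contained the 22 gamma TSSs. Of 170171 stretches between merged peaks 942 (0.554%) were at least as long as the first and 2430 (1.43%) at least as long as the other, and the median stretch was 0.663 kb. By the number of TSSs they contained they ranked 6th and 10th. Ahead of the alpha and beta stretch stood 5 stretches on other chromosomes, among them olfactory receptor genes on chromosome 11 with 50 TSSs and keratin genes on chromosome 17 with 48. The rank is a description, since neighbouring genes of a family are not independent.

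On the upstream side the stretch ended at a merged region over chr5:140725066-140726086 that had a peak in all 14 lists, with a fold enrichment of 4.27 to 18.3, within the long noncoding gene LOC105378198. A region of 3 lists and a region of 1 list followed it, and the last of these lay 59.2 kb before PCDHA1. The nearest peak of any list to a member TSS was 3.85 to 246 kb away, with a median of 86.3 kb, and 41 of 53 TSSs (77.4%) were more than 50 kb from any peak. Over all protein-coding genes the median was 0.0320 kb, and 19.8% were more than 50 kb away. The olfactory receptor genes of chromosome 11 had a median of 79.1 kb with 58.7% over 50 kb, and the HOX genes 9.61 kb with 38.5%. Of the members PCDHB1 was the farthest, at 246 kb, and PCDHGA1 the nearest, at 3.85 kb. The alpha and beta TSSs were all more than 50 kb away, compared with 10 of 22 gamma TSSs.

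The member promoters were poor in G and C. The median GC content of the 47 windows was 39.7%, with a range of 32.3% to 66.0%, compared with 62.7% for all promoters, 65.3% for promoters with a peak in all 14 lists and 55.7% for promoters with a peak in no list. The windows held a median of 7 CpG dinucleotides, with a range of 2 to 27, compared with 22 in all promoters. The promoters with a peak in all 14 lists had a median of 27 CpG and those with a peak in none a median of 8. Windows of the chromosome 11 olfactory receptors were poorer still, with medians of 37.0% GC and 1 CpG, whereas HOX windows had 58.0% and 22.5. Among promoters under 45% GC, 35 were members, of which 0 had a peak, and 1751 were other genes, of which 360 (20.6%) had a peak in at least 1 list. The part of base composition in the absence of peaks was not tested.

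**Figure D3:**
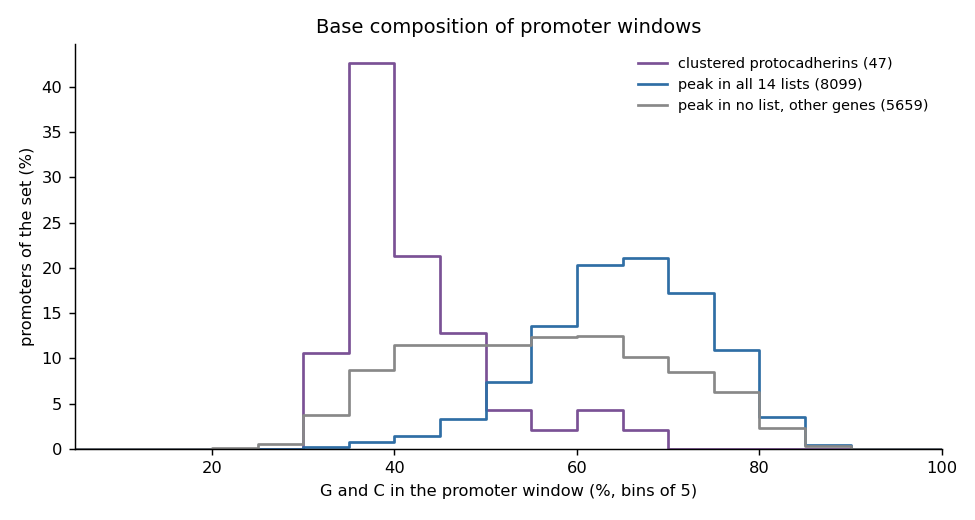
GC content of the promoter windows (x axis, %, bins of 5) against the share of each set in a bin (y axis, %), for 47 clustered protocadherins, 8099 genes with a promoter peak in all 14 lists and 5659 other genes with a peak in none. The most frequent bin of the clustered protocadherins, with 42.6% of them, starts at 35%, below the bulk of both other sets.

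Reads from near-identical copies can be lost when they align to several places. Of the 47 member windows 4 shared a stretch of 50 bases with another member. The highest shared portion was 13.5% of the stretches of PCDHGB5, with a median of 0. Only these short promoter windows were compared, and only with each other. Sequence outside them, where peaks were also sought, was not compared. These values therefore do not show how much of the clusters is near-identical. According to the methods, read pairs were kept when 1 or both of their ends mapped to a single place. The peak lists hold no reads, so the part of lost reads in the absence of peaks was not tested. The absence of a peak is a statement about peak calling and not a measure of zero acetylation.

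All H3K27ac of the locus that was found repeatedly lay in the 81.1 kb between the last beta gene and the first gamma gene (chr5:141249366-141330513), around TAF7 and SLC25A2, which are not protocadherins. Peaks were present there in all 14 lists and merged into 10 regions, of which 6 were present in 3 or more lists. With a fixed amount of antibody the peaks covered 928, 1205, 1382, 2010, 2168, 1662 and 2746 bases, in order from 0.31-T32 to 20-T0.5. With normalized antibody they covered 3799, 4285, 5425, 4194, 4666, 4037 and 5208 bases, in order from 0.31-T1 to 20-T1. The arms did not overlap, with means of 1729 ± 625 bases for fixed and 4516 ± 609 bases for normalized antibody (± SD, n = 7 libraries each). The lists of the fixed-antibody arm also covered less of chromosome 5, 1.31 to 2.82 Mb compared with 2.36 to 3.20 Mb. Per Mb of chromosome 5 under peaks the interval held 590 to 993 bases with fixed and 1305 to 1780 bases with normalized antibody. The arms thus did not overlap on that scale either. With -log10 q of at least 5 the arms still did not overlap in covered bases. The lowest normalized and the highest fixed-antibody library then nearly met. How often other intervals separate the arms in this way was not tested. The wide region described below lies in this interval, so its difference and that of the covered bases are not separate results.

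**Figure D4:**
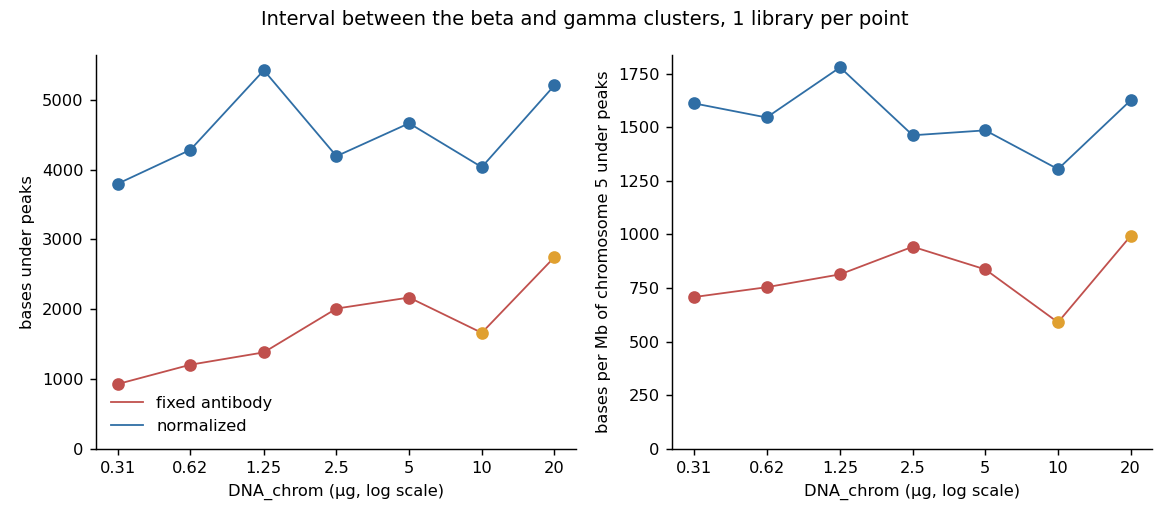
Bases under peaks between the beta and gamma clusters (left) and the same per Mb of chromosome 5 under peaks (right) against DNA_chrom in µg (log scale), with 1 library per point, blue for the normalized arm, red for titers over 1 and yellow for titers of 1 and 0.5 in the fixed-antibody arm. Every normalized library lies above every fixed-antibody library in both panels.

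Of the 6 regions, the arms differed most in a wide region at chr5:141298641-141301862, 3222 bases that overlap no RefSeq gene and lie between PCDHB15 and SLC25A2. In the normalized arm its strongest peak had a fold enrichment of 7.60, 8.74, 6.48, 6.58, 6.47, 7.92 and 9.39 from 0.31-T1 to 20-T1. In the fixed-antibody arm it was called only in 0.62-T16, 2.5-T4 and 20-T0.5, at 3.64, 4.63 and 4.79. The region was thus present in 7 of 7 normalized and 3 of 7 fixed-antibody libraries, and each of the 3 lay below all 7. At the shared condition of titer 1 and 10 µg it had no peak in 10-T1a and 7.92 in 10-T1b, although the lists held 79433 and 79967 peaks.

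Percentiles of fold enrichment within each list, set to 0 where no peak was called, put the libraries on a common scale. The wide region had a percentile of 76.7 ± 3.84 with normalized and 15.6 ± 22.4 with fixed antibody (mean ± SD, n = 7 each). The difference was 61.2 (exact permutation test over 3432 arrangements, two-sided, p = 5.83e-04, the smallest it can give), with an adjusted p of 0.0156 over all 67818 regions found in 3 or more lists. By that test 9.54% of all regions were called, and in 3.72% the arms did not overlap. Arms swapped within each amount of DNA_chrom gave p = 0.0156 by an exact test, the smallest that 7 pairs allow. The normalized library was higher in 7 of 7 pairs. Because the arms did not overlap, every pair had to point this way, so the paired test adds nothing to the first. The comparison of the arms was chosen after the peaks of this interval had been seen.

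The comparison of titers over 1 with titers of 1 or below gave a weaker result for the wide region. Its percentile was 12.6 ± 21.2 in the 5 libraries over titer 1 and 64.8 ± 26.5 in the 9 others. The difference of -52.3 had p = 0.00549 by the exact permutation test over 2002 arrangements and an adjusted p of 0.0777, so it was not called, at a background of 3.19% of regions called. None of the other 5 regions was called by either test. For the narrow region beside it, chr5:141297834-141298531, found in 12 lists, the adjusted p by exact permutation was 0.675 for titer and 0.590 for the arms.

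TAF7, which encodes a subunit of the general transcription factor TFIID, had the only promoter of the interval marked in all 14 lists. Its TSS lay in the gap between regions at chr5:141319664-141320774, on the side of the gene, and chr5:141320947-141321892, upstream, and both were present in 14 of 14 lists. The 150 bases before the TAF7 TSS (chr5:141320785-141320934, minus strand, RefSeq GRCh38.p14) fall wholly in this gap and are shown for contrast with the member promoters, with each of their 18 CG dinucleotides in capitals.
TAF7: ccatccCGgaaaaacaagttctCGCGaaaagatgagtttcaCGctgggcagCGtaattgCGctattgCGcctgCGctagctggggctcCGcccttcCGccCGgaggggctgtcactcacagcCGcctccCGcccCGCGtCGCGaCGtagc

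In the fixed-antibody arm the strongest TAF7 promoter peak had a fold enrichment of 5.14, 7.31, 8.04, 9.88, 6.68, 13.8 and 18.2 from 0.31-T32 to 20-T0.5. In the normalized arm it had 10.7, 10.6, 11.2, 14, 11.8, 10.4 and 13.5 from 0.31-T1 to 20-T1. All 5 libraries with a titer over 1 lay below all 9 others on this scale, whose unit is set within each library. By percentile their mean differed from that of the others by -8.93 (exact permutation test, two-sided, p = 0.0320, adjusted p = 0.134 over 11533 genes). The difference was -4.68 without 0.31-T32 (exact permutation p = 0.130) and ran from -11.6 to -4.68 when single libraries were left out. TAF7 was therefore not called, at a background of 6.18% of genes called. At matched amounts of DNA_chrom all 5 were lower than their normalized partner. The differences averaged -8.38 (two-sided sign-flip test, exact p = 0.0625, the smallest that 5 pairs allow). Each pair set a fixed-antibody library against a normalized one, so titer cannot be told apart from the arm there. On the log2 scale of fold enrichment the difference over all 14 libraries was -0.79, with an adjusted p of 0.00317 by the same exact permutation test, and 6594 genes were then called in place of 713. On that scale the median gene also differed by -0.51, and 91.5% of the genes tested were lower over titer 1, which left TAF7 -0.28 from the median gene.

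By percentile, TAF7 did not pass the test of a trend in either arm. Its percentile in the fixed-antibody arm had r = -0.653 with log2 titer (exact permutation p = 0.115) and rho = -0.786 (exact permutation p = 0.0480), with an adjusted p of 0.485 for r. In the normalized arm it had r = 0.131 with log2 DNA_chrom (exact permutation p = 0.795) and rho = 0.250 (exact permutation p = 0.595), with an adjusted p of 0.962 for r. Without the 2 libraries at the ends of each scale, r was 0.0146 with titer and -0.151 with DNA_chrom (n = 5 each). That narrows the range and leaves 5 libraries, so it cannot decide whether a relation held. With single libraries left out, r with titer was -0.799 to -0.335. None of 11123 genes was called for a percentile trend with titer and none of 11166 for one with DNA_chrom. Of these, 1389 and 758 had an unadjusted exact permutation p under 0.05. On log2 fold enrichment TAF7 had r = -0.861 with log2 titer (exact permutation p = 0.0147, adjusted p = 0.0310). On that scale 6762 genes were called for a titer trend. None of the 53 members could be tested for titer or trend, since none had a promoter peak in any list.

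**Figure D5:**
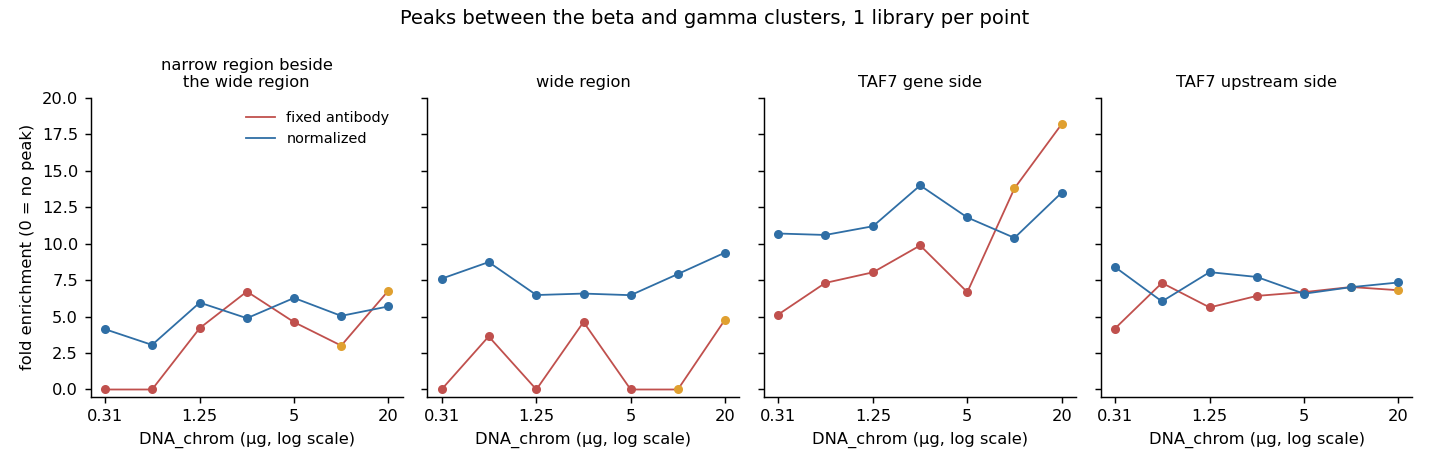
Fold enrichment of the strongest peak (y axis, 0 where no peak was called) against DNA_chrom in µg (x axis, log scale) in 4 regions between the beta and gamma clusters, with 1 library per point, blue for the normalized arm, red for titers over 1 and yellow for titers of 1 and 0.5 in the fixed-antibody arm. In the wide region the normalized libraries lie between 6.47 and 9.39 and the fixed-antibody libraries between 0 and 4.79, whereas the arms overlap in the other 3 panels.

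The remaining repeated regions were weaker. The region nearest to a member, chr5:141326262-141326659, ended 3855 bases before the TSS of PCDHGA1 and was present in 5 lists, 0.31-T1, 5-T1, 10-T1b, 20-T1 and 20-T0.5, with a fold enrichment of 3.41 in the last and 4.39 to 6.15 in the normalized libraries. A region at chr5:141313356-141313739 was present in 3 normalized lists at 3.46 to 4.51. The promoter of SLC25A2, which encodes a mitochondrial ornithine carrier, had a peak in 0.62-T1 and 20-T1 alone, at 4.13 and 4.57.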

How the data were processed

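H3K27ac ChIP-seq of K562 was measured in 14 libraries, and 2 input libraries, which have no peak list, entered only through the authors' peak calling. According to the methods and the submitters' processing notes, the authors aligned reads with BWA 0.5.9 and called peaks per library with MACS2 in Partek Flow, from pairs with a uniquely mapped end. For each peak the deposited lists give a fold enrichment (a ratio over background), a p-value and a q-value (both as -log10), a display score and a summit offset. Although the methods name hg19, the processing notes name hg38 and the positions run past the end of chromosome 5 in GRCh37, so the lists were read as GRCh38 with no conversion. The deposited q-values reach 5%, and peaks of at most 1% were used, which left 64083 to 82143 per list with a median fold enrichment of 4.62 to 5.02. For every library this was more peaks than the study lists at its FDR of 1%, so these are not the study's own peak sets. Reads and depth, which the study lists per library, were not analysed here.

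Gene positions came from RefSeq GRCh38.p14. The strand came from the RefSeq promoter table (15813 genes) or by symbol from GENCODE v44 (3817 genes), which placed the TSS of 19630 of 19974 genes. The members, lists and thresholds were chosen with earlier results of these data known. All members were counted, merged regions of the span present in 3 or more lists were named, and the marker, regulator and family lists were read as counts, with 1 lymphoid marker not reported here. Peaks of the 14 lists that shared a base were merged into 170284 regions. The value tested was the percentile of fold enrichment within its own list, 0 without a peak, in exact two-sided permutation tests over libraries with Benjamini-Hochberg adjustment over all genes or regions tested. P-values measure only the spread between these libraries, each a separate reaction on chromatin of 1 cell line. According to the methods the amounts were aliquots of prepared chromatin. The libraries of an arm are therefore different conditions and not independent replicates of the arm. The tests were checked on simulated data. Alternatives were other q-values, windows, summits, log2 fold enrichment, other filters and libraries left out. Computation used Python 3.11.15, numpy 2.4.6, scipy 1.17.1 and matplotlib 3.10.9.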

Additional observations from a re-analysis of the deposited data

Results flagged for a closer look

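In 1 library a value stood apart from the rest of its group. The share of all protein-coding genes that had a promoter peak was 54.1% in 0.31-T1, the lowest of the 7 normalized libraries, and its distance from the next library was large for the range of the group by Dixon's test. Chance gives such a result in about 1 in 20 groups, and 16 groups of values were looked at. In the study's mapping results 0.31-T1 also had the lowest share of uniquely mapped pairs and the lowest complexity of all libraries. Their part in the result was not tested. The count of clustered protocadherins with a promoter peak was 0 in this library, as in the other 13.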

How the results depend on the processing

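The count of 0 of 53 members with a promoter peak was also obtained with all deposited peaks, with -log10 q of at least 3 or 5, with a window of 1 kb and with summits alone, and a window of 5 kb gave 1 member, PCDHGA1, in 5 lists. The median length under peaks across the span was 3272 bases and fell to 2180 with -log10 q of at least 5. With all deposited peaks, the gamma cluster gained a peak in K562-H3K27ac-1.25-T8 (fold enrichment 3.15, q-value 3.02%), while the alpha and beta clusters still held 0.

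The number of genes called for titer, 713, was 1640 with -log10 q of at least 5, 6594 on log2 fold enrichment, 2060 against the 7 normalized libraries alone, and 0 to 1265 without single libraries. It was 0 without 0.31-T32, 0.62-T16, K562-H3K27ac-1.25-T8 or 2.5-T4, 1083 without 10-T1a, 1265 without 20-T0.5 and 179 to 376 without 1 normalized library. The number of regions called for titer, 2166, was 4436, 13057 and 0 to 3286 under the same first, second and last of these settings. The number called between the arms, 6473, was 3152 to 6362 without single libraries. The number of genes with a titer trend, 0, was 6762 on log2 fold enrichment and 0 without any 1 library, and that with a DNA_chrom trend was 0 under these alternatives. The causes were not tested.

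The arm difference of the wide region was called under all 18 alternatives fitted over all regions, with adjusted exact permutation p-values of 0.0102 to 0.0420. Its titer difference was called on log2 fold enrichment (adjusted exact permutation p = 0.0394) and without 10-T1a (0.0392), and its adjusted p was 0.0392 to 0.151 without single libraries. TAF7 was called for titer and for a titer trend only on log2 fold enrichment. Directions turned in 3 places, each without 1 library. Without single libraries, the upstream TAF7 region had a titer difference of -10.7 to 2.88 and an arm difference of -0.307 to 8.72 percentile points, both turned without 0.31-T32, and the DNA_chrom trend of TAF7 had r = -0.0575 (without 0.31-T1) to 0.492. With the amount of DNA_chrom as the replicate block, the paired arm difference of the wide region was 61.2 (7 pairs, exact p = 0.0156) and the paired difference of TAF7 over titer 1 was -8.38 (5 pairs, exact p = 0.0625), each with 1 value tested and no adjustment over genes. The paired p-value of the wide region was fixed once the arms did not overlap. The replicate numbers themselves only name libraries.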
